A study of Mus musculus with 20 samples.

Results

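The TFIIF peaks of mouse double-positive thymocytes were set against the peaks of total RNA polymerase II (Pol II) from the same cell type. The members were every peak of the 2 lists, 1262 for TFIIF and 18037 for total Pol II, which made 19299 of the 270514 peaks in the 16 lists used. Each list was split by whether a peak shared at least 1 bp with a peak of the other list. The cells were thymic T cells at the CD4+/CD8+ double-positive stage from C57BL/6 mice, with no treatment or altered gene named in the labels, and an age of 5 to 6 weeks is given for the FAIRE and RNA samples. Chromatin immunoprecipitation and sequencing (ChIP-seq) gave 15 of the lists, and FAIRE, which isolates open chromatin, gave 1. Total Pol II was precipitated with the N-20 antibody and TFIIF with the C-18 antibody, both from Santa Cruz. The other 14 lists were the general factors TBP, Taf1, TFIIA, TFIIB, TFIIE and TFIIH, the serine 5 (Ser5P) and serine 2 (Ser2P) phosphorylated forms of Pol II, CBP, ETS1, FAIRE, H3K4me3, H3K4me1 and H3K36me3.

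TFIIF travels with Pol II. It binds the polymerase, helps bring it to promoter DNA that already carries TBP and TFIIB, and keeps it from binding DNA at random, and it can also stimulate elongation. TFIIE and TFIIH join after Pol II and TFIIF, and TFIIH opens the DNA and phosphorylates serine 5 of the polymerase. H3K4me3 is the usual mark of active promoters, H3K4me1 without it is found at many enhancers, and H3K36me3 covers transcribed gene bodies.

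Each target had 1 list, made from merged replicates for TFIIF and Pol II and from 1 replicate for Taf1, TFIIB and CBP. No spread between animals could therefore be given and no p-value was computed. Shares carry Wilson 95% intervals and differences of shares carry Newcombe 95% intervals. Both cover counting error only, and they treat peaks as independent. Differences whose interval left out 0 count as called, with no adjustment over the 14 lists. Read numbers, and with them the depth of each list, were unknown, and a missing peak means only that the list holds none there. The input and immunoglobulin controls were not analysed here. No gene is named, since no mm9 annotation was used.

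Most TFIIF peaks lay on Pol II, and few Pol II peaks carried TFIIF. Of the 1262 TFIIF peaks, 678 overlapped a total Pol II peak, or 53.7% (51.0 to 56.5). Of the 18037 Pol II peaks, 676 overlapped a TFIIF peak, or 3.75% (3.48 to 4.04). List length limited this second share, since only 5 of the 1262 TFIIF peaks met more than 1 Pol II peak. The lists formed 683 overlapping pairs. The median pair shared 100 bp, which was 84.6% of the TFIIF peak, and in 231 pairs the TFIIF peak lay wholly inside the Pol II peak. In 9 pairs the overlap was 10 bp or less, and 15 TFIIF peaks without Pol II ended within 20 bp of a Pol II peak, so few assignments turned on a peak edge. When the centre of the TFIIF peak had to lie inside the Pol II peak, the share of TFIIF peaks was 49.1% (46.4 to 51.9). Adding the phosphorylated forms by the 1 bp rule raised the share of TFIIF peaks with any Pol II list to 57.6% (54.9 to 60.3). With only the upper 50% of both lists by area, 31.2% of TFIIF peaks overlapped Pol II, and with Pol II reduced to its 1262 peaks of highest area 6.02% did.

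Other general factors were found in Pol II peaks at shares on both sides of that of TFIIF. Over the whole lists 61.8% of TFIIE peaks, 60.9% of TBP peaks and 56.1% of TFIIB peaks overlapped Pol II, against 40.1% for TFIIH, 30.7% for TFIIA and 20.3% for Taf1. TFIIF had the shortest list of these. Among the 1262 peaks of highest area of each list, the shares were 98.1% for TFIIE, 96.7% for TFIIB, 84.9% for TBP, 69.7% for TFIIH, 66.5% for TFIIA and 55.9% (53.2 to 58.7) for Taf1. That length keeps the whole TFIIF list, weak peaks included, but only the peaks of highest area of the others. At that length 5 of the 6 lay above TFIIF, with intervals that did not meet its own, and that of Taf1 overlapped it. Depth and threshold can differ between these lists, and their part in this order was not tested.

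Over all peaks, the median size of Pol II peaks with and without TFIIF was close. The area of a peak is the authors' value, the area under their scaled and background-subtracted track over the peak, and it is compared here only within a list. The median Pol II area was 15946 (15096 to 16813) with TFIIF and 15282 (15047 to 15520) without, a ratio of 1.04 (0.973 to 1.12). The median width was 140 bp in both sets, a ratio of 1.00 (0.929 to 1.00). In the upper 50% of both lists by area the area ratio was 0.675 (0.599 to 0.761). Wide peaks made up more of the set with TFIIF. A width of 400 bp or more was reached by 12.6% (10.3 to 15.3) with TFIIF and 8.50% (8.09 to 8.92) without. For 600 bp or more the shares were 5.92% (4.38 to 7.96) and 3.13% (2.88 to 3.40). The widest peak spanned 5870 bp among the 676 with TFIIF and 13080 bp in the far larger set of 17361 without.

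The sets behind these medians had unlike chromatin. Peaks were classed as H3K4me3-marked, as H3K4me1-only if they met H3K4me1 and no H3K4me3, and as unmarked otherwise. Of the 676 Pol II peaks with TFIIF, 261 were H3K4me3-marked, 54 H3K4me1-only and 361 unmarked. Unmarked peaks made up 53.4% (49.6 to 57.1) of Pol II peaks with TFIIF and 25.7% (25.1 to 26.4) of those without, a difference of 27.7 points (23.9 to 31.5). H3K4me3-marked peaks made up 38.6% and 65.3%. Read the other way, TFIIF lay at 7.48% (6.77 to 8.26) of unmarked, 3.36% (2.59 to 4.36) of H3K4me1-only and 2.25% (1.99 to 2.53) of H3K4me3-marked Pol II peaks.

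Within the H3K4me3-marked class, Pol II peaks with TFIIF were larger. Their median area was 43931 against 21314 without TFIIF, a ratio of 2.06 (1.70 to 2.48), and their median width was 280 bp against 180 bp, a ratio of 1.56 (1.39 to 1.88). Their mean height, the area divided by the width, was 145 against 116 in track units, a ratio of 1.25 (1.17 to 1.34). A wide peak offers more base pairs to overlap. Per 100 kb of H3K4me3-marked Pol II peak, TFIIF pairs numbered 8.44 in the narrowest quintile (30 to 100 bp) and 10.6 in the widest (300 to 8640 bp), with 9.20 to 10.9 between. In unmarked Pol II peaks this density was uneven, at 26.7 in the narrowest quintile, 123 in the fourth and 27.3 in the widest. It divides by Pol II length only, while a 1 bp overlap also depends on TFIIF width. It therefore cannot show how far width accounts for the size difference, which was not tested. When the centre of the Pol II peak had to lie inside the TFIIF peak, a setting added for the H3K4me3-marked class after seeing the data, its ratios fell to 1.40 (1.10 to 1.79) for area and 1.22 (1.06 to 1.47) for width.

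Within the unmarked class the shift was smaller and had another form. The median area was 13441 with TFIIF against 10375 without, a ratio of 1.30 (1.21 to 1.36). The median width was 130 bp against 110 bp, a ratio of 1.18, whose interval was a single value because widths move in steps of 10 bp. Of the 361 unmarked Pol II peaks with TFIIF, 310 (85.9%, 81.9 to 89.1) were 100 to 170 bp wide, against 53.1% (51.6 to 54.5) of those without. None of the 361 reached 260 bp, while 224 of the 4465 unmarked peaks without TFIIF did. In H3K4me1-only chromatin the ratios were 1.06 (0.958 to 1.63) for area and 1.00 (0.923 to 1.17) for width.

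**Figure D1:**
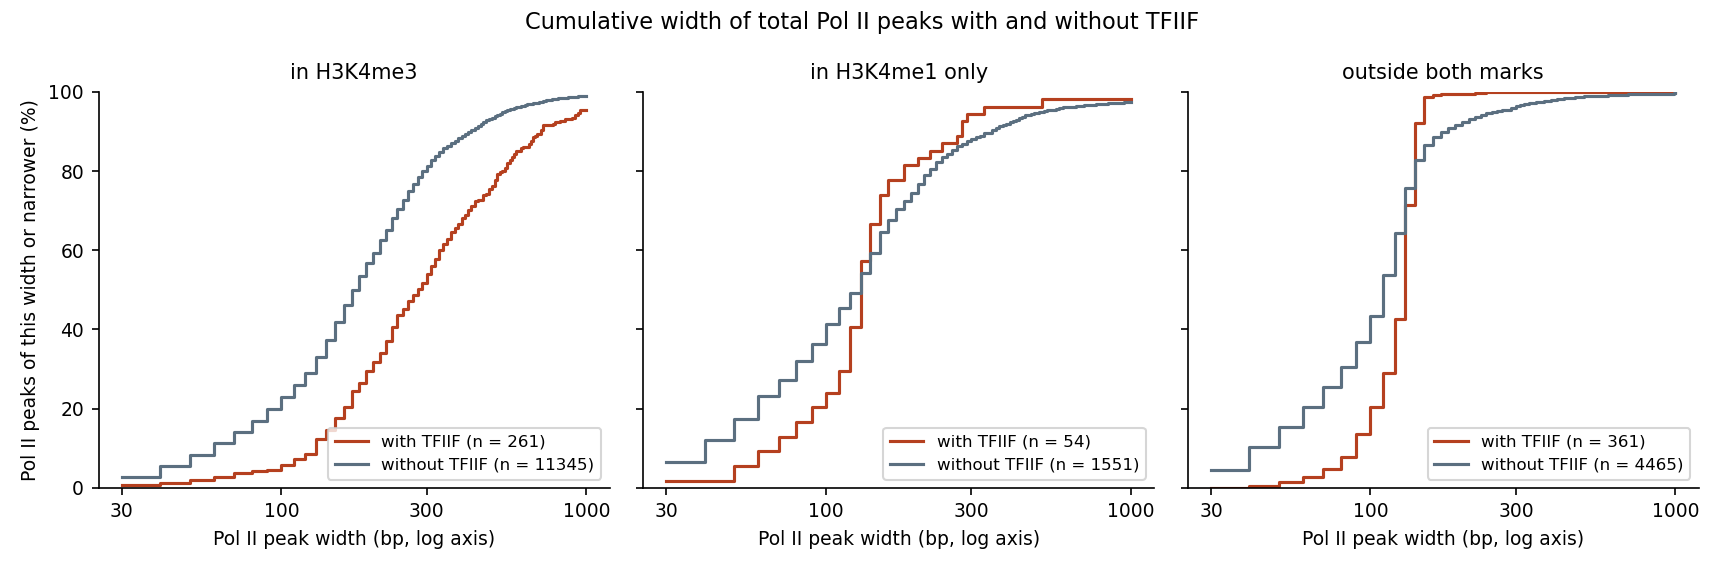
Cumulative share of total Pol II peaks (y, percent) at or below a given width (x, bp, log axis, shown to 1000 bp) with TFIIF (red) and without (grey), in the 3 chromatin classes. With TFIIF the curve lies to the right in H3K4me3 (median 280 against 180 bp), while outside both marks it rises steeply around 130 bp and meets its ceiling before the grey curve does.

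The share of Pol II peaks with TFIIF was therefore not monotonic in Pol II width or area. Peaks of equal width at the edge of a decile were divided in genome order. By decile of width the share rose from 0.665% (0.381 to 1.16) in the first to 9.92% (8.63 to 11.4) in the fifth, which held peaks of 130 to 140 bp. It fell to 1.88% (1.35 to 2.62) in the seventh and rose again to 5.21% (4.28 to 6.33) in the highest. By decile of area it rose from 0.721% to 6.71% in the fifth, fell to 2.27% in the eighth and reached 4.71% in the highest. The 2 maxima belonged to different chromatin. In the fifth decile of width 14 of the 179 peaks with TFIIF were H3K4me3-marked. In that decile 17.8% (15.4 to 20.5) of its unmarked peaks carried TFIIF against 1.73% (1.04 to 2.89) of its H3K4me3-marked ones. In the highest decile 92 of the 94 were H3K4me3-marked, and none of the 107 unmarked peaks carried TFIIF.

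**Figure D2:**
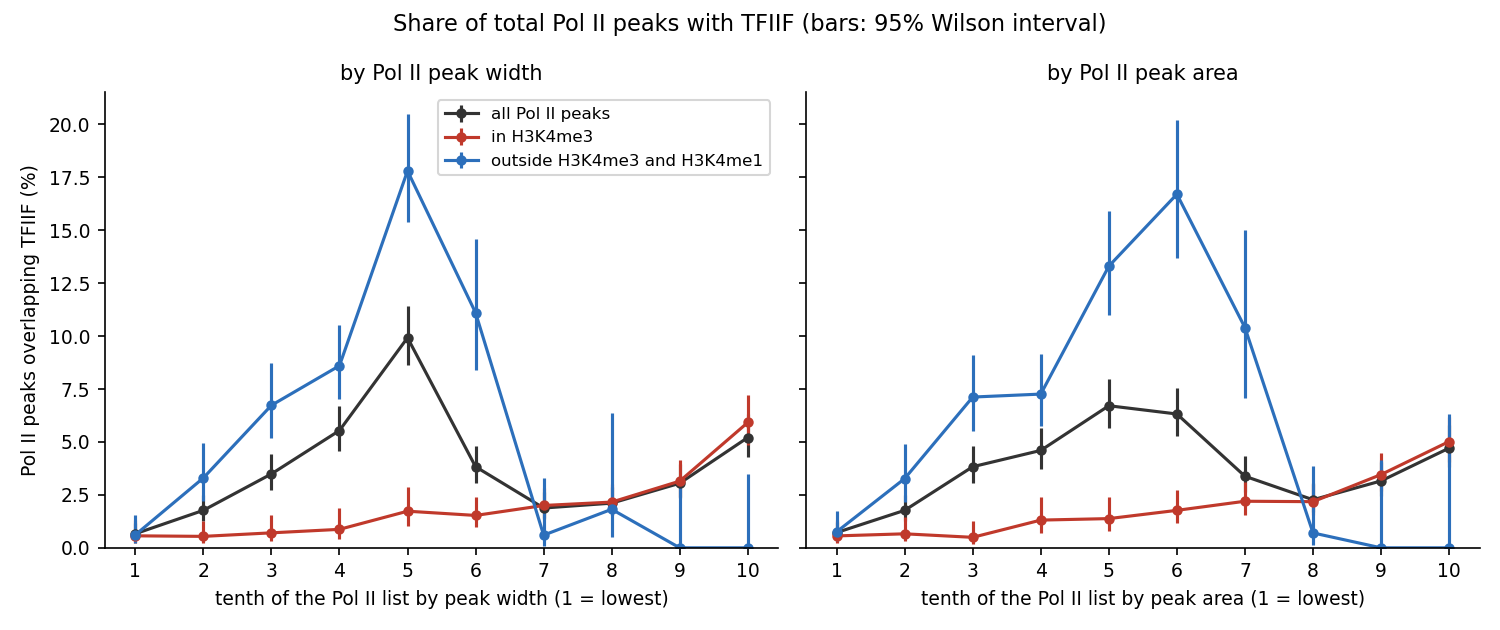
Share of total Pol II peaks that overlap TFIIF (y, percent, bars are Wilson 95% intervals) by decile of the Pol II list (1 is lowest) ranked by width (left) or area (right), for all peaks (black), peaks in H3K4me3 (red) and peaks outside H3K4me3 and H3K4me1 (blue). The blue line peaks at 17.8% in the fifth decile of width and is at 0 in the last, where the red line has its highest value, 5.92%.

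Most TFIIF peaks were narrow. The TFIIF track name records that reads were elongated, and 92.5% of TFIIF peaks with Pol II and 93.0% of those without spanned 170 bp or less. Of unmarked Pol II peaks, 99.4% (98.0 to 99.8) with TFIIF and 89.9% (88.9 to 90.7) without were 170 bp wide or less, against 24.5% (19.7 to 30.1) and 50.0% (49.0 to 50.9) of H3K4me3-marked ones. The part of read elongation in these widths was not tested.

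TFIIF peaks themselves were slightly larger on Pol II. Their median area was 10654 with Pol II against 8894 without, a ratio of 1.20 (1.08 to 1.35), and their median width 140 against 120 bp. The class mattered here too. The area ratio was 1.27 (1.13 to 1.42) for unmarked and 1.52 (1.01 to 1.91) for H3K4me1-only TFIIF peaks, and 0.915 (0.714 to 1.13) for H3K4me3-marked ones, where the interval held 1. With lists of equal length, where 76 TFIIF peaks were left on Pol II, the ratio over all TFIIF peaks was 0.674 (0.508 to 0.783). The share of TFIIF peaks on Pol II was 56.2% (51.6 to 60.7) in H3K4me3, 54.6% (50.8 to 58.3) in unmarked and 41.3% (33.4 to 49.6) in H3K4me1-only chromatin. Unmarked chromatin held 54.1% of TFIIF peaks with Pol II and 52.2% of those without, a difference of 1.90 points (-3.61 to 7.40) that was not called.

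The areas of paired peaks were weakly related, in opposite directions in the larger classes. Over the 259 pairs in H3K4me3 the rank correlation of the 2 areas was -0.278, and over the 367 unmarked pairs it was 0.207. These are descriptions across peaks of 1 pair of lists, and neighbouring peaks are not independent. The 5 Pol II peaks of highest area that carried TFIIF spanned 1790 to 5870 bp, and the TFIIF peaks first met inside them spanned 40 to 70 bp and ranked 1025 to 1193 among the 1262 by area. The highest of these Pol II peaks, chr11:52086181-52092050, had an area of 1443569, held 2 TFIIF peaks and met 12 of the 14 other lists. Those at chr1:135956411-135958470 (area 786687) and chr6:71322361-71324900 (area 674338) each met all 6 other general factors, CBP and FAIRE. The peak at chr13:21870841-21872630 (area 684026) had 5 general factors and no FAIRE. The last, chr17:51935361-51938790 (area 628354), had no general factor but Ser5P, Ser2P and H3K36me3.

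The 5 TFIIF peaks of highest area among those with Pol II met narrow Pol II peaks, 130 to 190 bp wide, which ranked 4907 to 10103 of 18037 by area, 4 of them in the upper 50%. The highest, chr18:34918661-34919140, spanned 480 bp with an area of 76552 and met TBP, TFIIA, TFIIB, TFIIE, Ser5P, CBP, FAIRE, H3K4me3 and H3K4me1. Those at chr5:140894741-140895200 (area 54805), chr13:105607021-105607380 (53326) and chr7:97129401-97129720 (39159) lay in H3K4me3 with FAIRE, TFIIB and TFIIE. The peak at chr19:45858041-45858270 (38580) lay outside both H3K4 marks but met FAIRE, TBP, TFIIE and Ser5P. None of the 5 met Taf1 or TFIIH.

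The 5 Pol II peaks of highest area without TFIIF were broad blocks, 5200 to 13080 bp wide, on 2 chromosomes. One was at chr11:52064611-52077690 (area 3437737), at lower coordinates than the strongest shared peak of that chromosome. The others lay at chr17:51905671-51915540 (2142064), chr17:51938831-51947470 (1951810), chr17:51926201-51932780 (1425785) and chr17:51874411-51879610 (1376728). Those on chromosome 17 were neighbours in 1 stretch, and the shared peak chr17:51935361-51938790 named above lay between 2 of them. The 5 are therefore not independent sites. All 5 met Ser2P, the form linked to elongation, and H3K36me3, and none met TBP, TFIIE, TFIIH or FAIRE.

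Pol II peaks with TFIIF carried more of the other general factors. Of TBP, Taf1, TFIIA, TFIIB, TFIIE and TFIIH, a Pol II peak with TFIIF met a mean of 3.61 ± 1.29 (SD over 676 peaks) and one without met 1.54 ± 1.55 (SD over 17361 peaks), a difference of 2.07 (1.97 to 2.17). Matched within quintiles of Pol II width the difference was 1.95 (1.86 to 2.05). TFIIF peaks showed the same size of difference, 3.50 ± 1.30 with Pol II (678 peaks) and 1.48 ± 1.52 without (584 peaks). TFIIF, TFIIA, TFIIE and TFIIH have track names of 1 pattern, unlike those of the other lists. Counting only TBP, Taf1 and TFIIB, a setting added after seeing the data, the differences were 0.759 (0.705 to 0.813) for Pol II and 0.962 (0.879 to 1.04) for TFIIF.

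The factors that act in the same complex differed in how far they went with TFIIF. TBP, which binds the TATA box, lay at 82.0% of Pol II peaks with TFIIF and 48.8% of those without, a difference of 33.2 points (30.0 to 36.0). Taf1, the largest subunit of the TFIID complex that holds TBP, lay at 53.1% and 13.2% (39.9 points, 36.1 to 43.7). TFIIA, which steadies TBP on DNA, lay at 45.7% and 9.66% (36.1 points, 32.3 to 39.8). TFIIB, which bridges TBP and the polymerase, lay at 33.0% and 30.2%, a difference of 2.79 points (-0.713 to 6.49) that was not called. Of the factors that join after Pol II, TFIIE lay at 79.4% and 35.9% (43.5 points, 40.2 to 46.5) and TFIIH at 67.5% and 16.4% (51.1 points, 47.4 to 54.5). List length changed this order. With every list but the histone marks cut to its 1262 peaks of highest area, where 73 Pol II peaks had TFIIF, TFIIB differed by 32.1 points (21.8 to 39.2) and Taf1 by 0.770 (-2.82 to 8.62), which was no longer called. TBP, TFIIA, TFIIE and TFIIH stayed called there, at 23.1, 16.2, 22.2 and 10.7 points. By centres TFIIB was less frequent with TFIIF, at -6.05 points (-9.05 to -2.53). It was more frequent with TFIIF within 500 bp (5.64 points, 2.32 to 8.97) and with the upper 50% of the other lists (6.10, 2.77 to 9.67). With Ser5P in place of total Pol II it was also more frequent (14.9, 9.12 to 20.7).

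Of the polymerase forms, Ser5P lay at 40.4% of Pol II peaks with TFIIF and 36.5% of those without (3.85 points, 0.144 to 7.66), and Ser2P at 8.58% and 7.30%, which was not called. The coactivator CBP, a histone acetyltransferase, lay at 35.9% and 8.87% (27.1 points, 23.5 to 30.8). ETS1, a T-cell transcription factor, lay at 15.5% and 4.89% (10.6 points, 8.09 to 13.6), and FAIRE at 23.5% and 18.9% (4.64 points, 1.54 to 8.03). The 3 histone marks were less frequent with TFIIF. H3K4me3 differed by -26.7 points (-30.4 to -22.9), H3K4me1 by -14.5 (-18.1 to -10.8) and H3K36me3 by -11.5 (-12.6 to -9.88). In all, 9 of the 14 lists were more frequent at Pol II with TFIIF, 3 were less frequent and 2 were not called. With lists of equal length the H3K4me3 and H3K4me1 differences turned to 6.34 and 12.8 points, of which the second interval (2.39 to 20.1) excluded 0. Only among peaks in FAIRE, H3K4me3, H3K4me1 and H3K36me3 differed by 1.29, 12.7 and 0.850 points, and Ser5P turned to -3.36 points in the upper 50% of both lists by area. The Ser5P and FAIRE calls were lost under other rules too. By centres Ser5P differed by -0.683 points and FAIRE by -1.11 (-3.22 to 1.65). With neighbouring peaks merged they differed by 2.67 and 2.93 points (FAIRE -0.280 to 6.42), and FAIRE by 5.81 (-0.620 to 12.8) in the upper 50% of both lists, with intervals that held 0. Ser5P was also not called within 500 bp (2.72 points), with the upper 50% of the other lists (1.59) and within quintiles of Pol II area (2.58).

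Around TFIIF peaks 10 of the 14 lists were more frequent with Pol II and none less. The differences were 50.3 points for TBP (79.9% against 29.6%), 41.6 for TFIIE (78.9% against 37.3%), 33.4 for TFIIH (63.7% against 30.3%), 30.8 for TFIIA and 30.4 for Taf1. TFIIB differed by 15.5 points (31.6% against 16.1%, 10.8 to 20.0), CBP by 17.4 and FAIRE by 6.41. Ser5P lay at 35.5% and 6.85% of TFIIF peaks. ETS1 and the 3 histone marks were not called. Taf1 turned to -9.41 points (-13.2 to -1.67) with lists of equal length, and TFIIH to -1.54 (-9.88 to 6.69) in the upper 50% of TFIIF and Pol II by area. The calls were also lost for TFIIH with lists of equal length (0.260 points) and for Taf1 in the upper 50% (0.0632). With lists of equal length ETS1 and H3K4me3 were called, at 17.6 (8.87 to 28.6) and 58.5 points (49.5 to 63.8). Both were also called within 500 bp and in the upper 50% of TFIIF and Pol II (13.9 and 21.8 points). The same held with Ser5P for total Pol II (7.80 and 31.3). Only H3K4me3 was called with the upper 50% of the other lists (9.01), in FAIRE and in H3K4me3 or H3K4me1. Neither was called with 50% of the narrower peak covered, by centres, on autosomes or with neighbouring peaks merged.

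**Figure D3:**
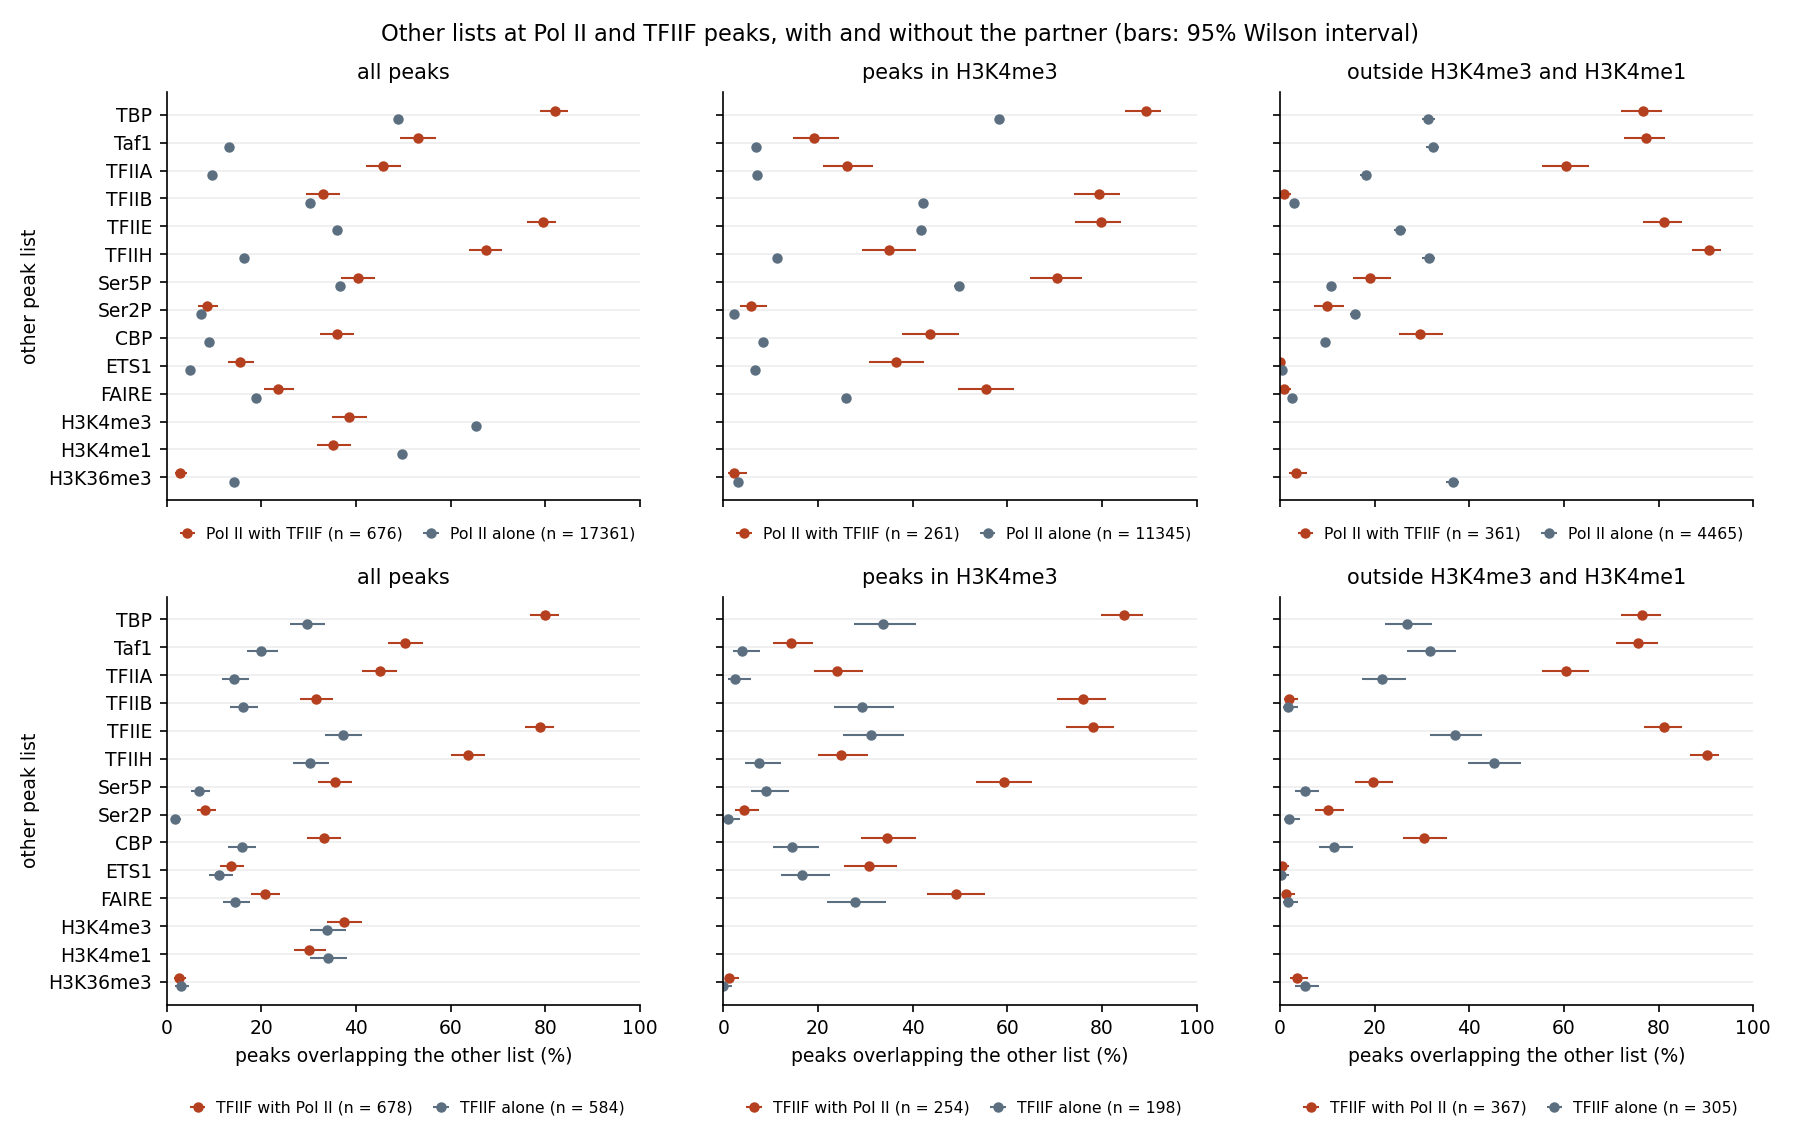
Share of peaks (x, percent, bars are Wilson 95% intervals) that overlap each of the other lists (y), for Pol II peaks with and without TFIIF (upper row) and TFIIF peaks with and without Pol II (lower row), over all peaks, peaks in H3K4me3 and peaks outside H3K4me3 and H3K4me1, where the 2 class-defining marks are left out. TFIIB, ETS1 and FAIRE are high with TFIIF in H3K4me3 and near 0 in every set outside both marks, while Taf1, TFIIA and TFIIH are highest outside both marks.

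The near equality of TFIIB over all Pol II peaks also broke up by class. In H3K4me3, TFIIB lay at 79.3% of Pol II peaks with TFIIF and 42.2% of those without (37.1 points, 31.7 to 41.7). In unmarked chromatin it lay at 0.831% and 2.89% (-2.06 points, -2.82 to -0.411). FAIRE behaved alike, at 55.6% against 26.0% in H3K4me3 (29.6 points, 23.5 to 35.5) and 0.831% against 2.51% outside both marks (-1.68 points, -2.42 to -0.0393). ETS1 lay at 36.4% and 6.65% in H3K4me3 (29.8 points, 24.1 to 35.8). Outside both marks it was found at 0 of the 361 peaks with TFIIF, where the Wilson interval reaches 1.05%, and at 0.358% of those without.

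Taf1 and TFIIH had the opposite emphasis. Among H3K4me3-marked Pol II peaks Taf1 lay at 19.2% with TFIIF and 6.83% without, and TFIIH at 34.9% and 11.4%. Among unmarked Pol II peaks Taf1 lay at 77.3% and 32.3% (45.0 points, 40.2 to 49.3) and TFIIH at 90.6% and 31.4% (59.2 points, 55.5 to 62.1). TFIIA lay at 26.1% and 7.03% in H3K4me3 and at 60.4% and 18.1% outside both marks. TBP and TFIIE were frequent with TFIIF in both classes, at 89.3% and 79.7% in H3K4me3 and 76.7% and 81.2% outside. CBP was also more frequent with TFIIF in both, at 43.7% against 8.39% and 29.6% against 9.63%. The unmarked class of the Taf1, TFIIA and TFIIH lists as a whole was large, 87.9%, 75.9% and 70.6% of their peaks, against 24.6% for TBP, 16.5% for TFIIB and 53.2% for TFIIF.

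H3K36me3 was rare at unmarked Pol II peaks with TFIIF. It lay at 3.32% of those with TFIIF and 36.5% of those without, a difference of -33.2 points (-35.2 to -30.4), and Ser2P lay at 9.97% and 15.9% (-5.91 points, -8.81 to -2.23). H3K4me1-only Pol II peaks showed the same for H3K36me3, 1.85% against 32.4% (-30.6 points, -33.4 to -22.3). In H3K4me3 the values were 2.30% and 3.10%, which was not called.

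The commonest sets of factors differed between the classes. Among the 254 H3K4me3-marked TFIIF peaks with Pol II, 86 (33.9%, 28.3 to 39.9) met exactly TBP, TFIIB and TFIIE. Among the 367 unmarked ones, 121 (33.0%, 28.4 to 37.9) met all factors but TFIIB, and a further 64 lacked only TFIIA as well. What these narrow unmarked sites are was not tested, since the input and immunoglobulin controls were not analysed here and no mm9 annotation of genes, small RNA genes included, was used. H3K4me1-only sites were few, 57 in all, and held both sets, with 13 that met all but TFIIB and 6 that met TBP, TFIIB and TFIIE. All 6 general factors met at 10 of the 678 shared TFIIF peaks, of which 6 were H3K4me3-marked, 3 H3K4me1-only and 1 unmarked, and 3 had FAIRE.

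The 5 of these with the highest TFIIF area were 140 to 180 bp wide. The first 2, at chr8:119399751-119399930 (area 19586) and chr14:63379931-63380090 (15631), lay in H3K4me3 with Ser5P, on Pol II peaks of area 37099 and 203928. The peak at chr12:26123121-26123280 (13541) lay in H3K4me1 only, with CBP and Ser5P, on a Pol II peak of 100 bp. The TFIIF peak at chr1:99476921-99477060 (12633) was the unmarked one and met CBP, ETS1, FAIRE and Ser2P. Its Pol II peak was 330 bp wide, while no unmarked Pol II peak with TFIIF reached 260 bp, so that Pol II peak did meet an H3K4 mark. The peak at chr13:109651351-109651510 (12624) met no list beyond the 6 and H3K4me1.

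The share of Pol II peaks with TFIIF climbed with the number of other general factors. It was 0.237% (0.144 to 0.391) with none, 0.965% with 1, 2.53% with 2, 5.92% with 3, 12.1% (10.6 to 13.8) with 4 and 22.3% (19.6 to 25.4) with 5. With all 6 it was 8.20% (5.03 to 13.1), below the value at 5, and 169 of those 183 peaks were in H3K4me3. From 1 to 5 factors the unmarked peaks had TFIIF more often at equal numbers. With 5 factors TFIIF lay at 33.2% (28.6 to 38.3) of unmarked and 11.0% (8.27 to 14.5) of H3K4me3-marked Pol II peaks. The share of TFIIF peaks on Pol II climbed from 7.09% (4.53 to 10.9) with none to 89.5% (84.2 to 93.2) with 5. At 3 factors it was 79.2% (71.1 to 85.5) in H3K4me3 and 57.1% (48.4 to 65.4) outside both marks.

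**Figure D4:**
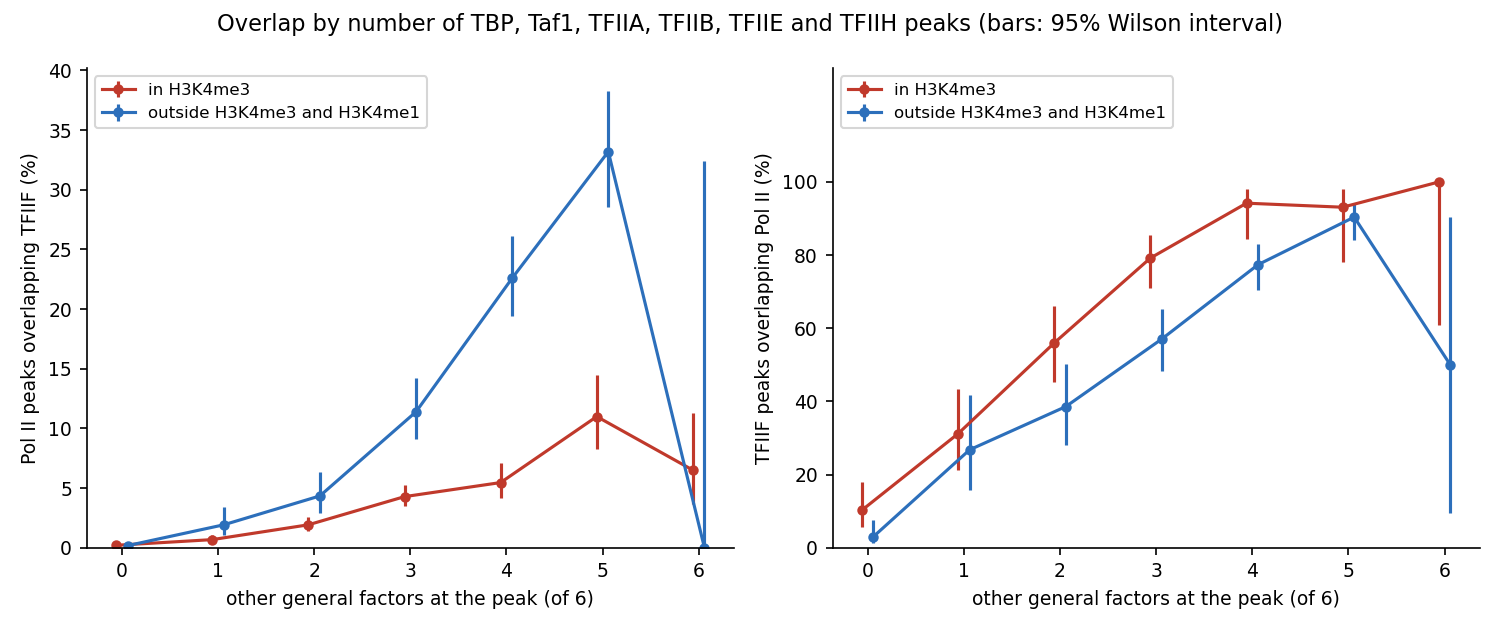
Share of Pol II peaks with TFIIF (left) and of TFIIF peaks with Pol II (right) in percent, by how many of the 6 other general factors the peak met, in H3K4me3 (red) and outside H3K4me3 and H3K4me1 (blue), with Wilson 95% intervals. Up to 5 factors both lines climb on the left, blue to 33.2% and red to 11.0%, and at 6 the red point on the left rests on 169 peaks and the other points on few.

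Taken 1 list at a time, Pol II peaks with TFIIA had TFIIF most often. TFIIF lay at 15.6% (14.0 to 17.2) of Pol II peaks with TFIIA, 13.8% of those with TFIIH, 13.6% with CBP, 13.5% with Taf1 and 11.0% with ETS1. It lay at 7.93% of those with TFIIE and 6.14% with TBP. With TFIIB it was 4.08% (3.59 to 4.64) and without it 3.60% (3.29 to 3.94). In H3K36me3 it was 0.759% (0.487 to 1.18), against 4.23% outside.

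The position of TFIIF within Pol II peaks also separated the classes. The centres of a pair lay a median of 25 bp apart, with 60 bp in H3K4me3, 30 bp in H3K4me1-only and 15 bp in unmarked chromatin. They lay within 20 bp of each other in 18.5% (14.3 to 23.7) of H3K4me3-marked pairs and 66.8% (61.8 to 71.4) of unmarked pairs. A wide Pol II peak leaves more room for an offset, and the median Pol II width of the pairs was 280 bp in H3K4me3 and 130 bp outside both marks. The other factors were centred in the same way. At unmarked Pol II peaks with TFIIF, centres lay within 20 bp of the Pol II centre for 94.6% of TBP, 85.7% of Taf1 and 85.0% of TFIIH pairs, and at those without TFIIF for 82.3%, 78.7% and 78.4%. At H3K4me3-marked ones with TFIIF the shares were 22.1% for TBP, 30.8% for Taf1 and 18.3% for TFIIH. Without TFIIF they were 18.6%, 26.5% and 26.5%, so TFIIH was centred less often with TFIIF there. The same held there for TFIIB, at 14.7% with TFIIF and 22.9% without, and for TFIIE, at 22.7% and 26.1%. TFIIA was centred more often with TFIIF, at 31.0% and 20.8%.

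**Figure D5:**
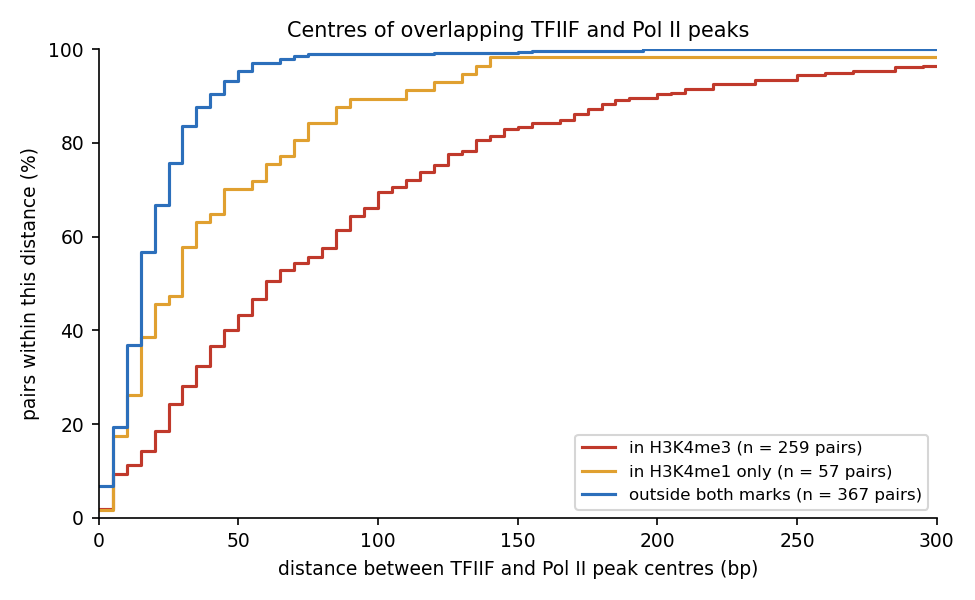
Cumulative share of overlapping TFIIF and Pol II pairs (y, percent) whose peak centres lie within a given distance (x, bp, shown to 300 bp), by chromatin class of the TFIIF peak. At 20 bp the curve stands at 66.8% outside both marks, 45.6% in H3K4me1 only and 18.5% in H3K4me3.

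The 584 TFIIF peaks without total Pol II were thinly covered by the other lists. Ser5P or Ser2P lay at 49 of them (8.39%, 6.40 to 10.9), and 236 (40.4%, 36.5 to 44.4) met none of the 6 other general factors, against 2.65% of those with Pol II. None of the 14 lists was met by 111 (19.0%), against 2 of the 678 with Pol II. At the other end 66 (11.3%) met 4 or more general factors though Pol II was not listed there. In the H3K4me1-only class ETS1 was less frequent with Pol II than without, at 21.1% of 57 and 38.3% of 81 TFIIF peaks, a difference of -17.2 points (-31.1 to -1.53).

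Their distance to Pol II depended on the class. Over all of them the nearest Pol II peak lay a median of 31156 bp away, and 14.2% (11.6 to 17.3) had one within 500 bp. Of the 198 in H3K4me3, 36.4% (30.0 to 43.3) had Pol II within 500 bp and the median distance was 3186 bp. Of the 305 in unmarked chromatin 3 (0.984%, 0.335 to 2.85) did, with a median of 94221 bp. Unmarked TFIIF peaks without Pol II were thus mostly far from it, while those in H3K4me3 more often lay beside it.

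The 5 of highest area were all H3K4me3-marked. That at chr5:121062571-121062920 (350 bp, area 44081) met only FAIRE and H3K4me3. That at chr4:47024021-47024290 (area 30680) met CBP and both H3K4 marks but no general factor. Those at chr11:103003701-103004020 (40742) and chr4:151699651-151699890 (31029) each met TFIIB, the first with TFIIE and the second with TBP, and that at chr8:14888531-14888830 (33202) met TBP alone of the 6.

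The overlap was also counted by chromosome. Over the 19 autosomes the share of TFIIF peaks on Pol II ran from 38.9% to 65.0% with a median of 52.6%, and that of Pol II peaks with TFIIF from 2.70% to 5.90% with a median of 3.72%. The first range rests on small numbers, 14 of 36 TFIIF peaks on chromosome 18 and 39 of 60 on chromosome 15. Whether either spread exceeds counting error was not tested. The X chromosome held 4 of the 1262 TFIIF peaks (0.317%, 0.123 to 0.812) against 1.70% of Pol II and 1.68% of TBP peaks. Lists between included TFIIA at 0.956%, TFIIE at 0.985%, Ser2P at 1.10%, and CBP and TFIIH at 1.16% each. The sex of the mice is not given in the sources used here.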

How the data were processed

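The data were ChIP-seq and FAIRE peak lists, 1 per target, as the authors deposited them, with chromosome, start, end and area. The area is the authors' signal value, summed by them over each peak. By the track names in the deposited files, each signal was cleared of artefacts, scaled and background-subtracted, FAIRE excepted. The TFIIF and Pol II replicates were merged first, and Taf1, TFIIB and CBP came from 1 replicate each. Peak ends fell on 10 bp bins. The build was mm9, per the submitters' processing notes. The sources used here name no aligner, peak caller or threshold, and the depth is unknown.

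Overlap meant at least 1 bp in common. The 4 peak sets, their areas, widths and distances, and their shares with the other 14 lists were computed in Python 3.11.15 with numpy 2.4.6, pandas 2.3.3, scipy 1.17.1 and matplotlib 3.10.9. Medians carry order-statistic 95% intervals, and a ratio of medians is bounded by the ratios of opposite interval ends. Regions were named by rule: the 5 peaks of highest area in each of the 4 sets, and the 5 shared TFIIF peaks with the most of the 6 other general factors, then by area. Overlap counts were first tested on simulated data. Alternatives covered the overlap rule, thresholds, list length, chromosomes, merging of neighbouring peaks, the Pol II antibody, chromatin and matching on area or width. The members, lists and classes were chosen with earlier results of these data known. The 4 samples of RNA and of controls were not used.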

Additional observations from a re-analysis of the deposited data

How the results depend on the processing

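The differences in the mean number of other general factors kept their sign, with intervals that excluded 0, under every alternative, and the numbers of lists more frequent with the partner stayed within 1.5 times. Under the overlap rules the share of TFIIF peaks with Pol II was 50.6% with 50% of the narrower peak covered, 60.3% within 500 bp and 49.1% by centres, and that of Pol II peaks with TFIIF 5.03% within 500 bp and 2.70% by centres. Within 500 bp the Pol II area ratio was 1.08, the Ser2P difference at Pol II -2.57 points and the H3K4me1 difference at TFIIF 9.26. By centres the Pol II ratios were 0.932 for area and 0.929 for width, and TFIIB, Ser5P and FAIRE at Pol II turned to -6.05, -0.683 and -1.11 points. In the upper 50% of both lists the shares were 31.2% and 2.20%, the Pol II ratios 0.675 and 0.739 and the TFIIF width ratio 1.03, with Ser5P at Pol II at -3.36 points, TFIIH at TFIIF at -1.54 and H3K4me1 at TFIIF at 11.9. With the upper 50% of the other lists Ser2P at Pol II was -3.45. With lists of equal length the shares were 6.02% and 5.78% and the TFIIF ratios 0.674 for area and 0.692 for width, and H3K4me3 and H3K4me1 at Pol II were 6.34 and 12.8, and Taf1 and H3K4me1 at TFIIF -9.41 and 19.2. With neighbouring peaks merged, 4.65% of Pol II peaks had TFIIF, the Pol II width ratio was 0.933 and the TFIIF width ratio 1.17, no longer called.

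With Ser5P for total Pol II the shares were 22.3% and 2.74%, the area ratios 1.15 for Pol II and 1.11 for TFIIF, the TFIIF width ratio 1.00, H3K4me1 at Pol II 1.09 points, and Taf1 and H3K4me1 at TFIIF -0.0925 and 8.82. In H3K4me3 or H3K4me1, 2.38% of Pol II peaks had TFIIF, the Pol II ratios were 1.74 and 1.41, the TFIIF ratios 1.03 and 1.00, and H3K4me1 at Pol II 8.61. In FAIRE the shares were 62.7% and 4.63%, the Pol II ratios 1.58 and 1.38, the TFIIF ratios 1.09 and 1.08, and H3K4me3, H3K4me1 and H3K36me3 at Pol II 1.29, 12.7 and 0.850. Within quintiles of Pol II width the area ratio was 1.17. The class settings were added after seeing the data. In H3K4me3, 2.25% of Pol II peaks had TFIIF, the Pol II ratios were 2.06 and 1.56, the TFIIF ratios 0.915 and 0.923, and H3K4me1 at Pol II 8.07. By centres there the shares were 47.8% and 1.06%, the Pol II ratios 1.40 and 1.22, the TFIIF ratios 0.836 and 0.857, and H3K4me1 3.55. Outside both H3K4 marks, 7.48% of Pol II peaks had TFIIF, the Pol II ratios were 1.30 and 1.18, and TFIIB, Ser2P, ETS1 and FAIRE at Pol II were -2.06, -5.91, -0.358 and -1.68, and FAIRE at TFIIF -0.277. By centres there the share was 6.71%, the Pol II ratios 1.32 and 1.18, these differences -2.27, -4.43, -0.267 and -1.67, and that of FAIRE at TFIIF -1.03. The causes of these changes were not tested, and neither was the part of the smaller numbers of peaks left under some settings. Lists of 1 merged sample allow no omission of a replicate, and depth is unknown, so an unlisted peak may be an undetected one.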
